A study of Mus musculus with 6 samples.

Results

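The genes described here encode the enzymes that remove acetyl groups from histones (histone deacetylases, HDACs, and sirtuins), that add them (histone acetyltransferases) and that remove methyl groups from histone lysines (histone demethylases). Members were found by gene symbol. They were all genes named Hdac, Sirt, Kat or Kdm and a number, with Hat1, Ep300 and Crebbp. In the array's annotation 47 of 18194 genes matched, with 110 of 45101 probe sets (a probe set is the group of short probes that reads 1 transcript). For each gene the probe set with the highest mean over the 6 arrays was used, and the gene was kept if that mean was at least 40. This left 46 genes of 15103 kept by the same rule on the whole array. The gene that was not kept was Kdm4a, a demethylase of lysine 9 of histone H3, whose brighter probe set averaged 13.3. A probe set that reads both Kdm6b and the gene 1700064E03Rik was left out.

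The samples were 3 eyes taken 6 hrs after optic nerve crush and 3 control eyes, which were uninjured contralateral eyes of the crushed animals. All eyes came from male C57BL/6J mice, whose age is not given in the sources used here. About 6000 cells of the ganglion cell layer were cut out per eye by laser capture from stained frozen sections, and their RNA was amplified and hybridized to 1 array per eye. Eyes of the same number, crushed and control, were taken as a pair, which the labels do not state outright. Values are linear signal intensities in arbitrary units, and differences are on the log2 scale, crushed eye minus control eye, with intensities under 16 set to 16. P values are two-sided and come from limma, a linear model fitted across all 33169 probe sets that averaged 40 or more, with the pair as a block, and they are adjusted over those probe sets. They and the SEs and intervals rest on the spread between these 3 pairs, which limma draws toward a value estimated over all tested probe sets.

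Acetyl groups on histone tails loosen the contact between histones and DNA and are bound by reader proteins with bromodomains, and deacetylases reverse both. Methyl groups on histone lysines act through their position, with methylated lysine 4 of histone H3 (H3K4) found at active promoters, lysine 36 (H3K36) along transcribed genes, and lysines 9 and 27 (H3K9 and H3K27) in silent regions. In mouse retinal ganglion cells, deacetylation of histones is known as an early nuclear step after damage to the optic nerve, before the cells die. In sensory neurons of mice, Hdac5 and Kat2b are known for a part in the nuclear response to a cut axon.

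Of 13 retinal ganglion cell markers 12 were measured, meaning a mean of 40 or more. Since 15103 of 18194 genes reached that mean, this does not show the cell type. The summed intensity of the 12 was 54570 to 68500 in the crushed eyes and 60820 to 62400 in the control eyes. Markers of other cells were measured too. The summed intensity of 8 rod markers was 39570 to 46320 in the crushed eyes and 28180 to 51130 in the control eyes, and that of 9 Muller cell markers was 39120 to 41560 and 40810 to 45480 in the same order. In such bulk samples, fewer cells of a type and less RNA per cell cannot be told apart. Median intensity per array was 131.2 to 153.9. Principal component 1, with 44.2% of the variance, set crushed eye 2 apart, and component 2, with 27.8%, set crushed eye 3 apart.

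Of the 46 genes, 26 had a fitted difference above 0 and 20 below, and the median was 0.02, against -0.02 over the 15103 genes. Only Sirt7 passed an unadjusted p of 0.05, and it was higher after crush. That is 1 of 46 members or 2.17%, against 5.03% of the 15103 genes in either direction, 2.76% in the higher and 2.27% in the lower direction. After adjustment 0 members passed with limma, with a lowest adjusted p of 0.642, and 0% of the 15103 genes passed. The study called a gene changed at an unadjusted p under 0.05 from a paired test of its own. The group means also had to differ by more than 1.2-fold and by more than 80 units. Here these cuts on the means were added to the unadjusted p from limma, so no member but Sirt7 could be called. Sirt7 met both cuts, with a ratio of means of 1.29 and a difference of 92.7 units. Of the 15103 genes 2.19% were called in this way. A fitted difference between -0.30 and 0.30 was found for 41 of 46 genes. The 95% interval of the difference lay within a 1.5-fold change in either direction for 23 genes and within a 2-fold change for 44. For these the arrays set a bound on what the brightest probe set reads, not on the gene. The interval reached past a 2-fold change for Kdm8 and Hdac5. Among the 23 genes, other tested probe sets of Hdac9 (95% interval 0.05 to 1.35) and Kdm5a (-1.07 to 0.32) also reached past it.

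**Figure D1:**
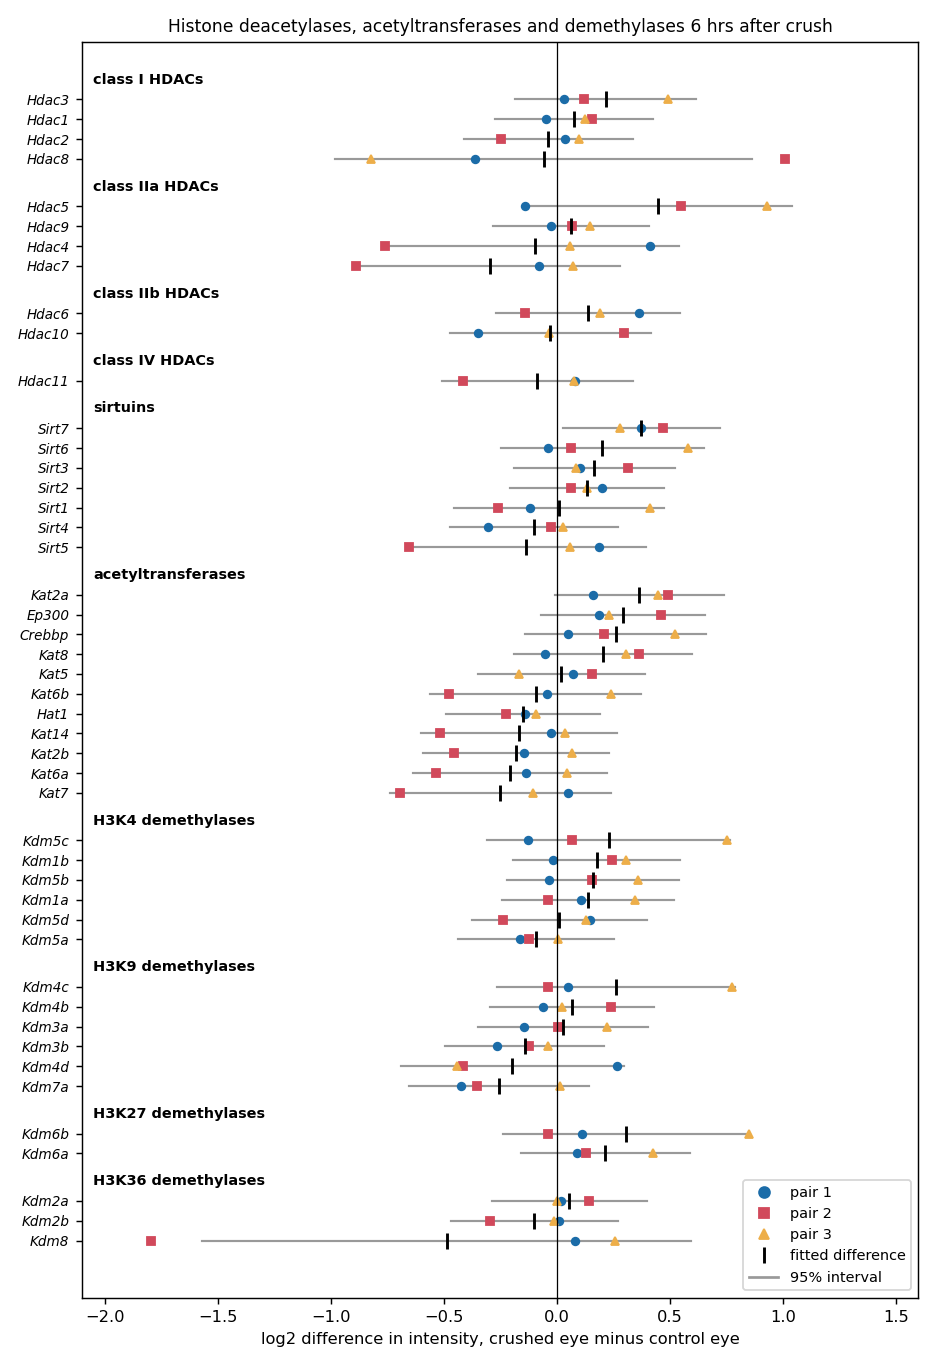
Fitted log2 difference in intensity (crushed eye minus control eye, x axis, black ticks) with its 95% interval (grey lines) for the 46 genes by enzyme class, and the difference in each pair of eyes (blue circles, pair 1; red squares, pair 2; yellow triangles, pair 3). All intervals but that of Sirt7 include 0, and the triangles of pair 3 lie to the right of 0 for 38 of 46 genes.

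Sirt7 encodes a sirtuin, a deacetylase that uses NAD+, and its protein is found mainly in the nucleolus. Its intensity was 381, 386 and 477 in crushed eyes 1, 2 and 3, against 294, 279 and 393 in control eyes 1, 2 and 3. Pair 3 was the brighter one in both groups, and the groups overlapped, since control eye 3 lay above crushed eyes 1 and 2. Within the pairs the crushed eye was higher by 0.37, 0.47 and 0.28 on the log2 scale. The fitted difference was 0.37 (SE 0.14, 95% interval 0.03 to 0.72), with an unadjusted p of 0.039 and an adjusted p of 0.642 from limma. Without the pairing the difference was the same and its unadjusted p from limma lay above 0.05, and it also lay above 0.05 when any 1 pair was left out, with a difference of 0.33 to 0.42. The study lists Sirt7 and chose its list on these samples, so the value is not independent evidence of a direction.

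Kat2a encodes GCN5, the acetyltransferase of the SAGA and ATAC coactivator complexes. It read 1485, 1597 and 1939.6 in the crushed eyes, against 1330, 1136 and 1423 in the control eyes. Every crushed eye lay above every control eye. The difference was 0.37 (SE 0.15, 95% interval -0.01 to 0.74, unadjusted p = 0.053, adjusted p = 0.642 from limma), with 0.16, 0.49 and 0.45 in pairs 1 to 3. A dimmer probe set of Kat2a, with a mean of 120.5, had 0.22 (95% interval -0.13 to 0.57) and was also higher in each pair.

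Sirt7 and Kat2a were the members that were higher in all 3 pairs with a difference of at least 0.3, and the 250 bases before the start that the RefSeq promoter table uses for each are therefore shown. Both genes lie on the minus strand of chromosome 11 of GRCm38.p6, Sirt7 at chr11:120618371-120625014 and Kat2a at chr11:100704746-100712485. The sequences cover chr11:120625015-120625264 for Sirt7 and chr11:100712468-100712717 for Kat2a, are written 5′ to 3′ on the gene's strand, and have exact motif matches on either strand in capitals. The Sirt7 window ends at the edge of its gene, with 0 bases inside it, while the last 18 bases of the Kat2a window lie inside the gene span given above.
Sirt7: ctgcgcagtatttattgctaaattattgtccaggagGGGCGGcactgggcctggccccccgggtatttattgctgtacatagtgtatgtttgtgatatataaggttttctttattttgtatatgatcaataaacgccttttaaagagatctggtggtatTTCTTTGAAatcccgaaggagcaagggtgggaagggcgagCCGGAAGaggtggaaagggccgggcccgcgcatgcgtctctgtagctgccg
Kat2a: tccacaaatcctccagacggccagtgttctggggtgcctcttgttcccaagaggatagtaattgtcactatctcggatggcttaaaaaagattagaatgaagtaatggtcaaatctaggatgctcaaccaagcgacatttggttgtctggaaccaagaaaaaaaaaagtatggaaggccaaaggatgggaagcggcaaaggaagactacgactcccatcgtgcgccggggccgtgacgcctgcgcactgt
The motifs searched were the GC box GGGCGG, the CCAAT box CCAAT, the TATA box TATAAA, the cAMP response element TGACGTCA, the AP-1 site TGAGTCA, the E-box CACGTG, the STAT site TTCNNNGAA and the ETS site CCGGAAG. In the Sirt7 window a GC box, a STAT site and an ETS site were matched 1 time each, and in the Kat2a window 0 of the motifs were. Over the first entry of each of 27025 genes in the RefSeq table, 32.9% of such windows held a GC box, 7.18% a STAT site and 7.05% an ETS site. Of the 46 members, 37 matched an entry, and 22, 1 and 6 of these windows held the 3 motifs in the same order. Such matches describe the letters only.

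The 11 deacetylases that depend on zinc had a median difference of -0.03, with 5 higher and 6 lower and 0 past an unadjusted p of 0.05 from limma. With any pair or crushed eye left out this median was above 0, at 0.020 to 0.094. Class I holds the nuclear enzymes. Hdac1, a catalytic subunit of the Sin3, NuRD and CoREST corepressors, was the brightest of this class by probe set. It read 3586, 3981 and 4258 in the crushed eyes, against 3702, 3578 and 3908 in the control eyes, so the groups overlapped. The difference was 0.08 (95% interval -0.27 to 0.43). Hdac2, its partner in the same complexes, had -0.04 (95% interval -0.41 to 0.34). Hdac3, the catalytic subunit of the NCoR and SMRT corepressors, had 0.22 (95% interval -0.19 to 0.62), and its readings were 719.5, 723 and 966 in the crushed eyes, against 703, 665 and 686 in the control eyes. Here every crushed eye lay above every control eye, by little in pair 1 (0.03) and pair 2 (0.12) and by 0.49 in pair 3. Without pair 3 the difference was 0.078. Hdac8, a class I enzyme that acts outside these complexes, was dim, with a mean of 45.3 where 40 was the minimum, and its pairs gave -0.36, 1.01 and -0.82.

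Class IIa enzymes shuttle between cytoplasm and nucleus and bind MEF2 transcription factors. Hdac9, the brightest of this class by probe set, had 1125, 1192 and 1028 in the crushed eyes, against 1144, 1138 and 927 in the control eyes. The groups overlapped, with a difference of 0.06 (95% interval -0.28 to 0.41). Hdac5 had the highest fitted difference of the 46 genes, 0.45 (SE 0.23, 95% interval -0.15 to 1.04, unadjusted p = 0.113, adjusted p = 0.650 from limma), and is described because of its size, after its values were seen. It read 704, 793 and 1266 in the crushed eyes, against 777, 541 and 665 in the control eyes. Crushed eye 3 stood above the other eyes, crushed eye 1 lay below its control (-0.14), and without pair 3 the difference was 0.20. Hdac4 had -0.10 (95% interval -0.74 to 0.54) and Hdac7 had -0.30 (95% interval -0.87 to 0.28). Both were lowest of the 6 arrays in crushed eye 2.

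Class IIb holds Hdac6, a cytoplasmic deacetylase of tubulin, and Hdac10, a deacetylase of polyamines. Hdac6, the brighter by probe set, read 1224, 992 and 1220.4 in the crushed eyes, against 951, 1094 and 1068 in the control eyes. The groups overlapped and pair 2 went the other way from pairs 1 and 3, with a difference of 0.14 (95% interval -0.27 to 0.55). Hdac10 had -0.03 (95% interval -0.47 to 0.42). Hdac11, the only class IV enzyme, read 8779, 6325 and 8341 in the crushed eyes, against 8294, 8436 and 7908 in the control eyes. Crushed eye 2 was the low one and the groups overlapped. The difference was -0.09 (95% interval -0.51 to 0.34).

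The 7 sirtuins had a median difference of 0.13, with 5 higher and 2 lower, and Sirt7 was the 1 past an unadjusted p of 0.05 from limma. With all arrays brought to the same distribution (quantile normalization) the median was 0.07. Of the other nuclear sirtuins, Sirt6 had 0.20 (95% interval -0.25 to 0.65) and Sirt1 had 0.01 (95% interval -0.45 to 0.47). The pairs of Sirt6 gave -0.04, 0.06 and 0.58, and without pair 3 its difference was 0.013. Sirt1, the best-known sirtuin in neurons, read 1236, 1159 and 1019.8 in the crushed eyes, against 1343, 1389 and 767 in the control eyes. The crushed eyes lay between the low control eye 3 and the other two. Sirt2, a mainly cytoplasmic deacetylase of tubulin, had 0.13 (95% interval -0.21 to 0.47).

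The mitochondrial sirtuins were Sirt3, Sirt4 and Sirt5. Sirt3, the main mitochondrial deacetylase and the brightest sirtuin by probe set, had 3659, 3952 and 4180.1 in the crushed eyes, against 3412, 3176 and 3943 in the control eyes. It was higher in each pair (0.10, 0.32 and 0.08), the groups overlapped through control eye 3, and the difference was 0.17 (95% interval -0.19 to 0.52). Sirt4 had -0.10 (95% interval -0.47 to 0.27). Sirt5, which removes succinyl groups, had -0.14 (95% interval -0.67 to 0.39).

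The 11 acetyltransferases had a median difference of -0.09, with 5 higher and 6 lower and 0 past an unadjusted p of 0.05 from limma, and they differed among themselves. The 5 above 0 were Kat2a, the paired coactivators Ep300 and Crebbp (p300 and CBP, which acetylate enhancers), Kat8 (MOF, which acetylates histone H4) and Kat5 (Tip60, of the NuA4 complex). The 6 below 0 were Kat2b, Hat1, Kat14, Kat6a, Kat6b and Kat7, the last 3 being enzymes of the MYST family, as are Kat5 and Kat8.

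Ep300 read 2335, 3075 and 2499 in the crushed eyes, against 2053, 2232 and 2129 in the control eyes. Crebbp read 1623, 1692 and 1994 in the crushed eyes, against 1567, 1465 and 1388 in the control eyes. In both genes, which were chosen for this description after their values were seen, every crushed eye lay above every control eye. The difference was 0.29 for Ep300 (95% interval -0.07 to 0.65, unadjusted p = 0.092, adjusted p = 0.648 from limma) and 0.26 for Crebbp (95% interval -0.14 to 0.66, unadjusted p = 0.157, adjusted p = 0.678 from limma). Pair 2 had the highest difference for Ep300 (0.46) and pair 3 for Crebbp (0.52). Crebbp has 3 other tested probe sets, with differences of 0.17, 0.03 and -0.44, so they did not share a direction.

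Kat2b encodes PCAF, the close relative of GCN5, and was the brightest acetyltransferase by probe set. It read 3024, 2991 and 2474 in the crushed eyes, against 3346, 4101 and 2364 in the control eyes. The SD was 308 in the crushed eyes and 871 in the control eyes (n = 3 each), and the groups overlapped. The difference was -0.18 (95% interval -0.59 to 0.23), while the next probe set of Kat2b had 0.40 (95% interval -0.04 to 0.85). Taking the brightest probe sets, the difference of Kat2a exceeded that of Kat2b in each pair, by 0.30, 0.95 and 0.38. Other related genes were compared in this way too, and none of those contrasts kept its sign in all pairs. The next probe set of Kat2b gave 0.03, 0.56 and 0.62 in pairs 1 to 3, above the 0.49 and 0.45 of Kat2a in pairs 2 and 3.

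Hat1, which acetylates newly made histone H4 before it reaches chromatin, read 1425, 1069.6 and 1171 in the crushed eyes, against 1568, 1249 and 1247 in the control eyes. It was lower in each pair (-0.14, -0.22 and -0.09), with overlapping groups and a difference of -0.15 (95% interval -0.49 to 0.19). Kat6a, Kat6b, Kat7 and Kat14, a subunit of the ATAC complex, were each lowest of the 6 arrays in crushed eye 2, and their fitted differences were -0.21, -0.09, -0.25 and -0.17. In pairs 1 and 3 their differences ran between -0.14 and 0.24. Without pair 2 they were -0.05, 0.10, -0.03 and 0.01, so Kat6b and Kat14 changed sign. Over the whole array crushed eye 2 was the lowest of the 6 arrays for 36.5% of the genes, against 12 of the 46 members or 26.1%.

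**Figure D2:**
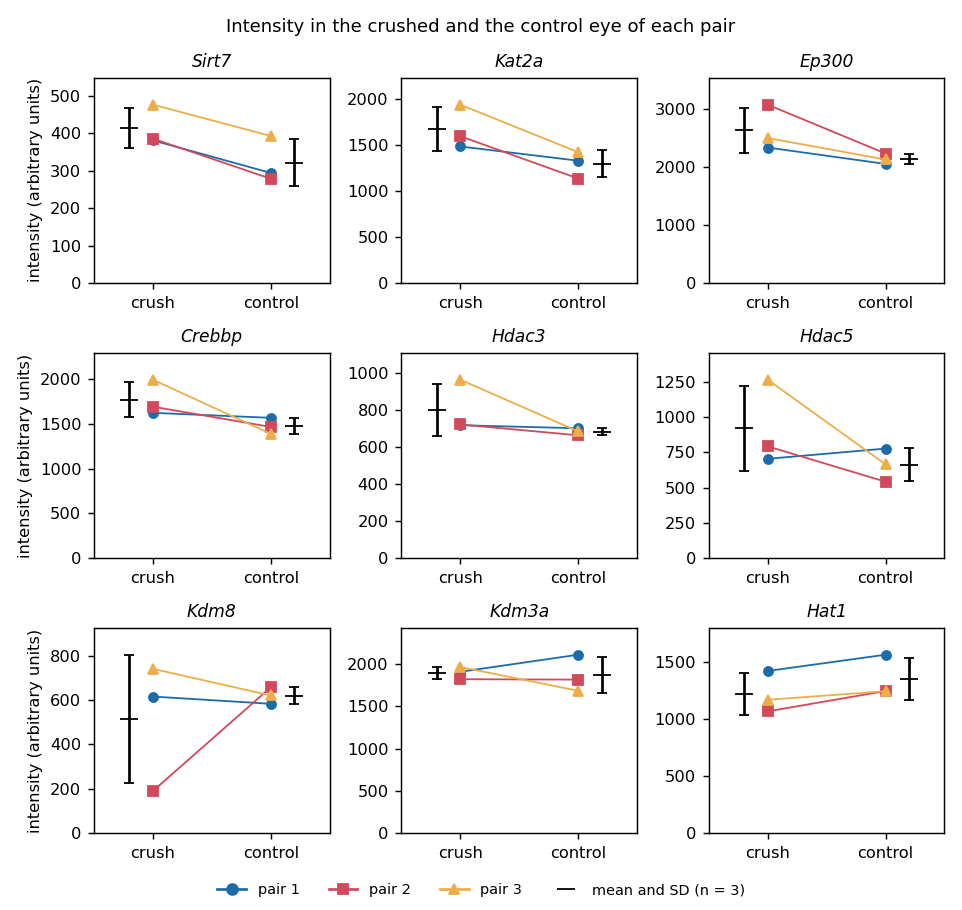
Intensity (y axis, arbitrary units, from 0) in both eyes of each pair for 9 of the genes, crushed eye on the left, with lines joining the eyes of a pair and the mean ± SD of each group (n = 3) beside them. For Sirt7, Kat2a, Ep300, Crebbp and Hdac3 all 3 lines fall to the right, for Hat1 they climb, and for Kdm8 crushed eye 2 is far below the other eyes.

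The 17 demethylases had a median difference of 0.05, with 11 higher and 6 lower and 0 past an unadjusted p of 0.05 from limma. Kdm1a and Kdm1b use FAD, and the other members of this group are JmjC enzymes that need iron and 2-oxoglutarate. The 6 enzymes of H3K4 had the median 0.15, with 5 higher and 1 lower, and without pair 3 the median was 0.0016. Kdm5b, the brightest of them by probe set, read 2136, 1717 and 1923 in the crushed eyes, against 2185, 1542 and 1498 in the control eyes. Its groups overlapped, and the difference was 0.16 (95% interval -0.22 to 0.54). Kdm1a, the CoREST subunit LSD1, had 0.14 and Kdm1b had 0.18. The X-linked Kdm5c had 0.23, with -0.13, 0.07 and 0.75 in pairs 1 to 3 and -0.032 without pair 3. The Y-linked Kdm5d had 0.01 and Kdm5a had -0.09. The intervals of these 5 genes all included 0.

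The enzymes of H3K9 had a median of -0.06 over 6 genes, with 3 higher and 3 lower. The study lists the protein of Kdm3a, as JMJD1A, among phosphoproteins of the neural retina that went up after injury, which is not a measure of RNA. Its direction there is an average over 6 hrs and earlier times, while the arrays are from 6 hrs alone. Kdm3a, the brightest of this group by probe set, read 1909, 1821 and 1966 in the crushed eyes, against 2112, 1817 and 1685 in the control eyes. The control eyes enclosed the crushed ones. The pairs gave -0.15, 0.00 and 0.22, and the difference was 0.03 (95% interval -0.35 to 0.40). Kdm3b, its close relative, was lower in each pair (-0.26, -0.12 and -0.04) with 547, 550.3 and 590.2 in the crushed eyes, against 656, 599 and 607 in the control eyes. It was the only member with every crushed eye below every control eye, and the difference was -0.14 (95% interval -0.49 to 0.21). Its second probe set was also lower in each pair, with 125, 121 and 129 in the crushed eyes, against 139.9, 143 and 141 in the control eyes, and a difference of -0.18 (95% interval -0.52 to 0.16). Kdm4c had 0.26, with 0.05, -0.04 and 0.77 in pairs 1 to 3 and 0.0057 without pair 3. Kdm4b had 0.07, Kdm4d had -0.20 and Kdm7a had -0.25. The intervals of these 4 genes included 0.

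The 2 demethylases of H3K27 were both higher. Kdm6a (UTX), the brighter by probe set, read 680.4, 754 and 644 in the crushed eyes, against 640, 689 and 479 in the control eyes. It was higher in each pair, by 0.09, 0.13 and 0.43, with control eye 3 the lowest of the 6 and the groups overlapping. The difference was 0.22 (95% interval -0.16 to 0.59). Its second probe set gave -0.02. Kdm6b (JMJD3), known as an inducible gene in macrophages, had 0.31 (95% interval -0.24 to 0.85, unadjusted p = 0.208, adjusted p = 0.702 from limma), with 0.11, -0.04 and 0.85 in pairs 1 to 3 and 0.037 without pair 3.

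Of the 3 demethylases of H3K36, Kdm2b, which binds CpG islands and recruits a Polycomb complex, was the brightest by probe set. It read 2195, 1942 and 1959 in the crushed eyes, against 2183, 2384 and 1974 in the control eyes. The groups overlapped, with a difference of -0.10 (95% interval -0.47 to 0.27). Kdm2a had 0.05 (95% interval -0.29 to 0.40). Kdm8 had the lowest fitted difference of the 46 genes, -0.49 (SE 0.43, 95% interval -1.57 to 0.59, unadjusted p = 0.303, adjusted p = 0.750 from limma), and is described for that reason, after its values were seen. It read 616, 189 and 742 in the crushed eyes, against 584, 658 and 621 in the control eyes. The low value was that of crushed eye 2 alone, and without pair 2 the difference was 0.17. Kdm8 was the 1 member of 46 (2.17%) that was lower in crushed eye 2 than on each other array by over 1 on the log2 scale, as were 3.76% of the 15103 genes.

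The direction was the same in all pairs for 11 of the 46 genes. Those higher in all 3 pairs were Crebbp, Ep300, Hdac3, Kat2a, Kdm2a, Kdm6a, Sirt2, Sirt3 and Sirt7, which is 9 genes or 19.6%, against 15.2% of the 15103 genes. Those lower in all 3 pairs were Hat1 and Kdm3b, which is 2 genes or 4.35%, against 15% of the 15103 genes. All crushed eyes lay above all control eyes for 4 genes, namely Crebbp, Ep300, Hdac3 and Kat2a, or 8.7%, against 5.69% of the 15103 genes. They lay below for Kdm3b alone, or 2.17%, against 5.32%. Astrocyte markers were higher in each pair as well, with 3 of 4 measured and a summed intensity of 5766 to 6737 in the crushed eyes and 4683 to 5773 in the control eyes. Of the 5 retinal pigment epithelium markers 4 were measured. In Rgr (1.30) and Lrat (0.59) every crushed eye lay above every control eye, while Best1 (-0.01) and Rlbp1 (-0.09) had differences below 0. The summed intensity of the 4 was 6474 to 8087 in the crushed eyes and 7174 to 7832 in the control eyes. Most of that sum was Rlbp1, which is also on the Muller cell list and read 6032 to 7561 in the crushed eyes. Bipolar cell markers, with 6 of 8 measured, all had a fitted difference below 0, with a summed intensity of 12140.0 to 14020.0 in the crushed eyes and 13670.0 to 16200.0 in the control eyes. The part of these cells in the values was not tested.

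The pairs of eyes gave different medians. Over the 46 genes the median difference was -0.00 in pair 1 and -0.03 in pair 2, with 23 and 22 genes higher. In pair 3 it was 0.13, with 38 genes higher and 8 lower. Over the 15103 genes the medians were 0.01, -0.10 and 0.04, and 8641 genes were higher in pair 3. With pair 3 left out, 15 of the 26 genes with a difference above 0 had less than 1/1.5 of it or changed sign, against 3 without pair 1 and 6 without pair 2. All 7 sirtuins and all 6 demethylases of H3K4 were higher in pair 3, with medians of 0.13 and 0.33. Control eye 3 was the lowest of the control eyes for 25 of 46 members or 54.3%, against 42.5% of the 15103 genes. It was the lowest of all 6 arrays for 16 members or 34.8%, against 18.6%, and the highest for 0, against 14.2%. Crushed eye 3 was the highest of the 6 arrays for 15 members or 32.6%, against 26% of the 15103 genes. Rod markers moved with this pair too. All 8 were higher in pair 3, with a median of 0.84, and control eye 3 had the lowest summed intensity of them. In pair 1 all 8 were lower, with a median of -0.21. The 6 cone markers were also all higher in pair 3, with a median of 0.96, and all lower in pair 1. Crushed eye 2 had the lowest summed intensity for ganglion cell, amacrine, bipolar cell and lens markers. It had the highest for retinal pigment epithelium markers. The part of these cells in the values of the pairs was not tested.

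**Figure D3:**
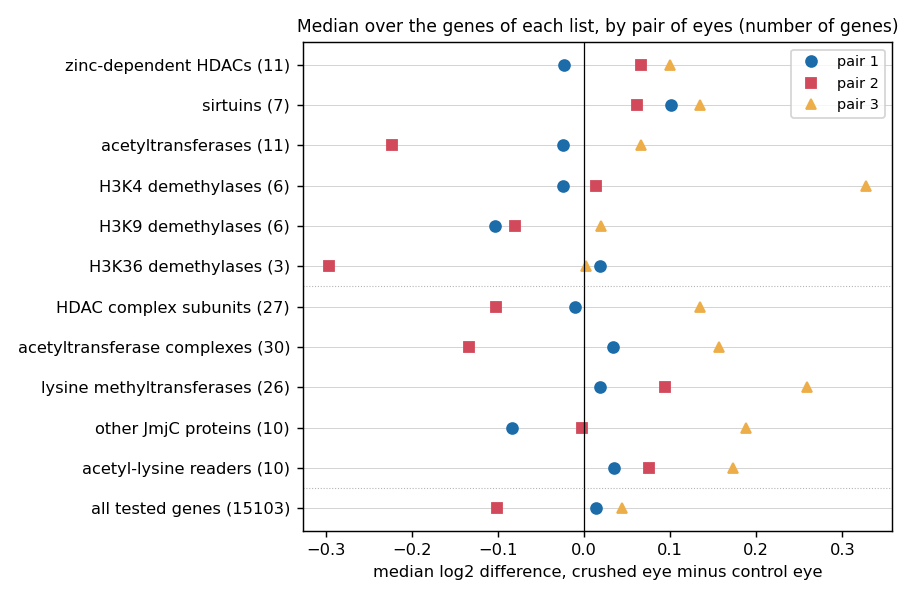
Median log2 difference (crushed eye minus control eye, x axis) over the genes of each enzyme class and of each list of partner genes, with 1 marker per pair of eyes and the number of genes in brackets. The bottom row gives the 15103 tested genes, and for H3K4 demethylases pair 3 (0.33) lies apart from pairs 1 and 2 (-0.02 and 0.01).

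Many of the genes are read by more than 1 probe set, which can lie in different parts of the transcript. Of the 110 probe sets, 91 were tested, and 24 genes had at least 2 tested probe sets. For 10 of these 24 genes all tested probe sets had the same sign. Among the 45 tested probe sets that were not the brightest, 4 passed an unadjusted p of 0.05 from limma, all higher after crush, where 5.16% of all tested probe sets passed in that direction and 7.68% in either. They belonged to Hdac9 (0.70), Hdac4 (0.67), Kdm5c (0.51) and Kdm6a (0.47), and their adjusted p was 0.642 from limma.

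All 4 were dim, with means of 43.8, 59.6, 43.8 and 47.9 in the same order, and were among 12 such probe sets with a mean under 100. Of the other 33, which averaged 100 or more, 0 passed. The shares over all tested probe sets of these intensities were not computed, so the counts are not read as a trait of the members. The dim probe set of Hdac4 read 63.7, 90.9 and 65.8 in the crushed eyes, against 53.1, 39.7 and 44.6 in the control eyes, with no overlap. That of Hdac9 read 69.3, 40.3 and 46.4 in the crushed eyes, against 65.0, 12.8 and 29.1 in the control eyes, with overlap. The brightest probe sets of these 4 genes had differences of 0.06 for Hdac9, -0.10 for Hdac4, 0.23 for Kdm5c and 0.22 for Kdm6a. With a floor of 64 in place of 16 the differences of the dim probe sets were 0.031 for Hdac9, 0.18 for Hdac4 and 0.024 for Kdm6a, and that of Kdm5c had no value above the floor. Which transcripts the dim probe sets read was not examined.

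**Figure D4:**
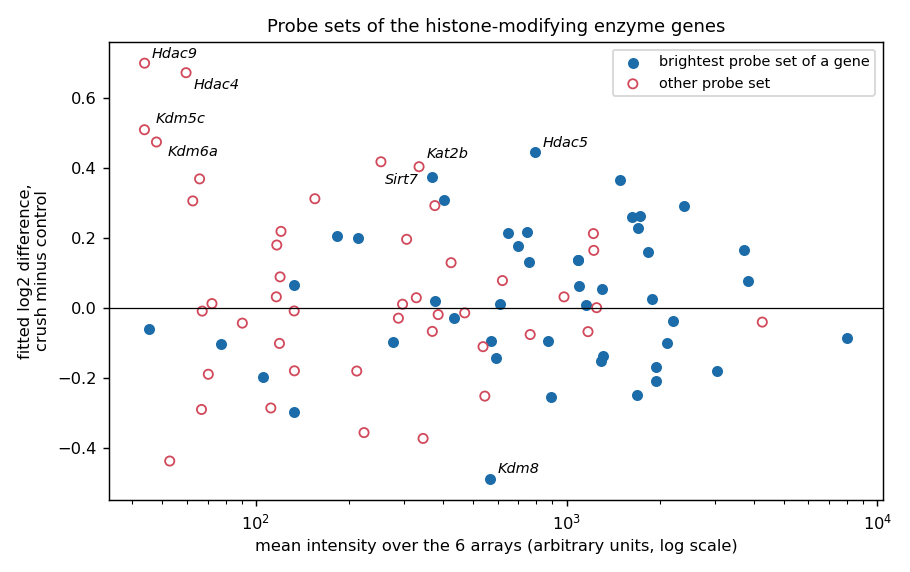
Fitted log2 difference (crush minus control, y axis) of the 91 tested probe sets against their mean intensity over the 6 arrays (x axis, arbitrary units, log scale), with filled points for the brightest probe set of each gene and open points for the others. The 4 labelled open points at the upper left are the dim probe sets of Hdac9, Hdac4, Kdm5c and Kdm6a, and Sirt7 is the filled point that passed an unadjusted p of 0.05.

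The proteins that work with these enzymes were described in the same way. Of the 27 measured subunits of deacetylase complexes (30 listed), 13 were higher and 14 lower, with a median of -0.01 and 0 past an unadjusted p of 0.05 from limma. Of the 30 measured subunits of acetyltransferase complexes (31 listed), 16 were higher and 14 lower, with a median of 0.01 and again 0 past it. The 10 JmjC proteins outside the Kdm names were split 5 to 5, with a median of -0.01 and 0 past it.

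The last 2 lists were the methyltransferases, which write lysine methylation, and the readers of acetyl-lysine. Over the 15103 genes 6906 had a difference above 0 and 5.03% passed an unadjusted p of 0.05, and the lists were not tested against them. Of 26 measured methyltransferases (28 listed), 18 were higher and 8 lower, with a median of 0.12, and Dot1l passed an unadjusted p of 0.05. Dot1l, which methylates the globular core of histone H3, read 1726, 2336 and 2554 in the crushed eyes, against 1616, 1648 and 1479 in the control eyes. Every crushed eye was above every control eye, with a difference of 0.46 (SE 0.18, unadjusted p = 0.049, adjusted p = 0.642 from limma), which was 0.30 without pair 3. Of 10 measured readers (11 listed), 8 were higher and 2 lower, with a median of 0.08, and Brd2 passed. Brd2, a bromodomain protein of the BET family, read 1135, 1324 and 1316 in the crushed eyes, against 875, 929 and 1019 in the control eyes. These groups did not overlap either, with a difference of 0.42 (SE 0.14, unadjusted p = 0.026, adjusted p = 0.642 from limma). Pair 3 had the highest median of the pairs in each of the 5 lists, between 0.13 and 0.26.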

How the data were processed

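RNA of laser-captured ganglion cell layer from 3 crushed and 3 control eyes had been measured by the authors on Affymetrix Mouse Genome arrays. The deposited values are linear intensities per probe set. The authors obtained them in dChip, which scaled the arrays on an invariant set and applied the PM/MM model. Arrays have no depth, and their number limits the precision. Probe sets were named from the platform annotation, and 34958 carried 1 symbol, 932 several and 9211 none. After 64 control probe sets were left out, a floor of 16 was set before log2 was taken. The 33169 probe sets that averaged 40 or more entered limma 3.58.1 (lmFit and eBayes, R 4.3.3), with eye number as a block and Benjamini-Hochberg adjustment. The fit was tested on simulated data.

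Controls were contralateral eyes of the same animals, but which control belongs to which crushed eye is given only by the eye number. Residuals of same-numbered eyes correlated by 0.15, 0.13 and 0.30, each over 0.1, and the numbers were therefore taken to pair the eyes. Of the 6 combinations of different numbers, crushed eye 1 with control eye 2 correlated by 0.131, above the 0.125 of pair 2, and the other 5 by -0.26 to -0.04.

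The members and lists were chosen with earlier results of these data known. Values in every array were given for members past an unadjusted p of 0.05, for those that moved the same way in all pairs by at least 0.3, for the brightest probe set of each class, and for Kdm3a and Sirt7, which the study lists. Kdm3a is listed there as a phosphoprotein. Genes given so outside this rule were chosen after their values were seen. Levels of different probe sets were not compared, and the brightest probe set of a class does not rank its transcripts. Of partner lists, members past an unadjusted p of 0.05 were named. Medians over a class have no test, since genes share arrays. Alternatives changed the block, floor, filter, scaling, prior, test, probe set and arrays. Some listed genes were not analysed here.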

Additional observations from a re-analysis of the deposited data

How the results depend on the processing

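The calls, class medians and differences of the 46 genes were recomputed under 17 alternatives. Direction counts, pair medians and marker sums were not. The study's criteria stand here for its cuts on the group means, joined to the unadjusted p of each setting. No setting brought a member past an adjusted p of 0.05 with limma. Of 758 differences of single genes 677 kept their sign and their side of an unadjusted p of 0.05. Of the rest 58 changed sign, 9 lost and 14 gained that call. Dropping the block or changing the filter or the prior leaves the fitted difference as it is, so no sign could change there. With the second brightest probe set 10 of 24 genes changed sign. In 23 genes the sign never changed, among them Sirt7, Kat2a, Ep300, Crebbp, Hdac3, Hdac5, Hat1 and Kdm3b. Sirt7, Ep300, Hdac3, Hdac5 and Hat1 have only 1 tested probe set, so taking other probe sets could not change their sign. With no replicate block, the pairing being dropped, 0 genes were higher past an unadjusted p of 0.05 and 0 met the study's criteria, and the difference of Sirt7 was 0.37. Quantile normalization (Sirt7 at 0.32) and scaling to the same median (0.37) gave 0 and 0 as well. A floor of 64, no intensity filter, or an intensity trend with a robust prior gave 3 higher and 3 by the study's criteria, namely Ep300, Kat2a and Sirt7. A mean of at least 100 gave 2 and 2, Kat2a and Sirt7. The mean of all probe sets of a gene gave 2 higher, Hdac4 and Sirt7. The second brightest probe set, which 24 genes have and Sirt7 lacks, gave 1 higher, Hdac9, and 0 by the study's criteria. Without the filter 1 gene was lower, as with the methods' t-test, and in both cases it was Hat1. Leaving out a pair or a crushed eye gave 0 to 1 higher, 0 to 1 lower and 0 to 1 by the study's criteria. Without pair 1 the gene past it was Hdac5, without pair 2 it was Hdac8 (lower), and Sirt7 was not past it in any of these.

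Class medians also moved. For zinc-dependent deacetylases the median was 0.064 with a floor of 64, 0.060 with the methods' t-test and 0.077 with the mean of all probe sets, and 0.020 to 0.094 with a pair or crushed eye left out. For class I HDACs it was 0.12 with a floor of 64, 0.10 with the methods' t-test and 0.021 to 0.12 with eyes left out. For class IIa HDACs it was 0.35 with the mean of all probe sets and 0.37 with the second brightest, and for acetyltransferases 0.079 and 0.17. With eyes left out the medians ran from -0.12 to 0.15 for class IIa HDACs, -0.18 to 0.011 for acetyltransferases, -0.032 to 0.14 for all demethylases and 0.0016 to 0.21 for H3K4 demethylases, which had -0.0077 with the second brightest probe set. For sirtuins it was 0.074 with quantile normalization and 0.013 to 0.16 with eyes left out, a range that was -0.16 to 0.093 for H3K36 demethylases and -0.072 to 0.016 for H3K9 demethylases. Classes with under 3 genes in a setting were given no median. For the partner lists and dim probe sets, 15 alternatives that keep the probe set were added after the data were seen. Brd2 stayed past an unadjusted p of 0.05 in 12 of 15 (difference 0.37 to 0.49, p 0.0045 to 0.0996, limma or the methods' t-test) and Dot1l in 7 of 15 (0.30 to 0.65, p 0.0053 to 0.226). The dim probe sets of Hdac9, Hdac4, Kdm5c and Kdm6a passed in 4, 9, 5 and 7 of the 14 that kept them. List medians ran from 0.022 to 0.19 for methyltransferases and 0.046 to 0.12 for readers, and the other 3 changed sign, between -0.078 and 0.080.

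Signs of single genes changed with the probe set taken. The second brightest probe set gave -0.018 for Kdm6a, -0.067 for Kdm2a, 0.079 for Kdm2b, -0.0077 for Kdm1a, -0.10 for Kdm5d, 0.40 for Kat2b, -0.36 for Kat5, 0.18 for Kat6a, 0.31 for Kat6b and 0.37 for Hdac4. The mean of all probe sets gave -0.0021 for Kdm2a, -0.044 for Kdm5d, 0.079 for Kat14, 0.11 for Kat2b, -0.17 for Kat5, 0.11 for Kat6b and 0.32 for Hdac4. Quantile normalization gave -0.046 for Kdm5d, -0.038 for Kat5 and -0.027 for Sirt1. A floor of 64 gave 0.15 for Hdac8, and the methods' t-test 0.11 for Hdac8 and -0.035 for Sirt1. With a pair or a crushed eye left out, the difference ran from -0.036 to 0.11 for Kdm2a, -0.86 to 0.17 for Kdm8, -0.22 to 0.061 for Kdm5a, -0.032 to 0.41 for Kdm5c, -0.091 to 0.14 for Kdm5d, -0.071 to 0.11 for Kdm3a and -0.081 to 0.16 for Kdm4b. It ran from -0.28 to 0.011 for Kat14, -0.090 to 0.18 for Kat5, -0.26 to 0.097 for Kat6b, -0.11 to 0.068 for Hdac2, -0.63 to 0.60 for Hdac8, -0.35 to 0.24 for Hdac4, -0.19 to 0.15 for Hdac10, -0.18 to 0.079 for Hdac11, -0.19 to 0.15 for Sirt1, -0.16 to 0.0011 for Sirt4 and -0.30 to 0.12 for Sirt5. The cause was not tested.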
